A study of Mus musculus with 8 samples.

Results

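The 10 genes described here encode the enzymes that turn citrate into long-chain fatty acids and begin their storage, and the transcription factor gene that controls them: Srebf1, Acly, Me1, Acaca, Acacb, Fasn, Elovl5, Elovl6, Scd1 and Gpam. They were chosen by name for this pathway, from 21951 protein-coding genes of the GENCODE M21 annotation of the mouse genome mm10, of which 9677 carried a peak in at least 1 of 4 deposited lists. All 10 were found in the annotation, and all 10 carried a peak in at least 1 list. A peak was counted for a gene when it overlapped the gene body by 1 bp or more.

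The study precipitated RNA from liver nuclei with an antibody against NONO and sequenced the precipitate and its input (RIP-seq). NONO is a nuclear RNA-binding protein of paraspeckles that also sits on nascent transcripts. All mice were wild type C57BL/6, 14 weeks old, and lived under a cycle of 12 h light and 12 h dark with food offered during darkness alone in the final week. Livers were taken fasted at ZT10 (10 h after lights on), after 2 h of re-feeding at ZT14 and after 10 h of re-feeding at ZT22. A control precipitation used IgG, and its label gives no feeding state. Feeding state and time of day differ together in these groups and cannot be told apart. Each of the 8 libraries pooled 2 experiments and each group is 1 library, so no difference below has a replicate check, and no test was made. Intervals cover counting error only.

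In liver, glucose carbon leaves the mitochondria as citrate, which is cleaved to acetyl-CoA in the cytosol, carboxylated to malonyl-CoA and built into palmitate by fatty acid synthase. Palmitate is then elongated, desaturated and esterified to glycerol phosphate. Insulin after a meal drives the transcription of these genes through SREBP-1c, the product of Srebf1, together with the glucose sensor ChREBP, and fasting shuts it down.

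The libraries held 18275033 to 21091048 tags, and the NONO lists held 38209 (fasted), 61737 (2 h) and 50609 (10 h) peaks, against 55946 in the IgG list. A listed peak had at least 2-fold more tags than its input, so a gene with no peak may still hold tags, and no fold is given against it. Tags are given per 10000000 tags of the library, and 1 IgG peak, over the small nuclear RNA gene Rn7sk, took 37.5% of the IgG library, which lowers every other IgG value. Peaks were called on both strands together, so RNA from a gene and from a gene overlapping it cannot be separated. In these bulk nuclei, fewer cells of a type and less RNA per cell cannot be told apart. Of 10 hepatocyte marker genes 4, 5, 6 and 7 carried a peak in the fasted, 2 h, 10 h and IgG lists, summing to 5228, 10151, 18256 and 20472 tags, with Apoa1 and Serpina1a in none, and all 5 adipocyte markers were without a peak in every list. Kupffer cell markers with a peak were 2, 2, 2 and 3 of 6, summing to 14.2 to 26.3 tags. Endothelial markers were 3 of 5 in every list, summing to 566, 1373, 1273 and 604 tags. Stellate cell markers were 2, 3, 2 and 5 of 5, summing to 46.0 to 82.0 tags in the NONO lists and 2511 in the IgG list. Markers with a peak fasted or at 2 h were compared at 2-fold, counting those listed at 1 of these times alone. Higher at 2 h were 2 of 5 hepatocyte, 1 of 3 Kupffer, 3 of 3 endothelial and 2 of 3 stellate markers. The share over protein-coding genes was 54.2%. Lower were 1 hepatocyte and 1 Kupffer marker, beside 13.3% of genes. The part of these cells in the values below was not tested.

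Listed NONO peaks over the pathway were most extensive 2 h after re-feeding. The 10 genes held 73 peaks in the fasted list, 151 at 2 h and 129 at 10 h, and 188 in the IgG list. The peaks covered 62.8 kb, 258 kb and 132 kb of gene body at the 3 times and 278 kb in the IgG list. Summed tags were 2339 fasted, 16354 at 2 h, 7846 at 10 h and 11654 in IgG. Scaled to the IgG library without its Rn7sk peak, the IgG sum was 18642, above the 2 h NONO sum. Elovl6 alone made up 52.6% of the 2 h sum. The genes held 0.202%, 0.628% and 0.453% of all listed NONO tags at the 3 times and 0.219% of the listed IgG tags. Without the Rn7sk peak, their share of the listed IgG tags was 0.741%, above all 3 NONO shares. Without Elovl6, the NONO shares of the other members were 0.183%, 0.298% and 0.381%, highest at 10 h. Per kb of covered sequence, the members' peaks carried 37.3, 63.3 and 59.6 NONO tags, whereas over the whole lists the density was 39.1, 36.7 and 38.7. Without Elovl6 the density was 39.3, 42.8 and 62.6, so the higher 2 h density was mostly that of Elovl6. Of the 8 members with a fasted and a 2 h peak, 5 were denser at 2 h, while Acacb (0.72-fold), Me1 (0.83-fold) and Gpam (0.98-fold) were not. Srebf1 (1.03-fold) counts among the 5 because its 2 h peak ran past the gene while covered length was clipped to the body. Over whole peak widths, Srebf1 was less dense at 2 h, at 28.9 tags per kb against 43.1 fasted.

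The input under the peaks stood at 14.5 tags per kb fasted, 27.5 at 2 h and 25.3 at 10 h, and at 15.4, 18.1 and 26.3 without Elovl6. It was denser at 2 h than fasted in 5 of 8 members, and thinner in Acacb (0.49-fold), Me1 (0.81-fold) and Srebf1 (0.84-fold). The ratio of precipitate to input over all member peaks was 2.57 fasted, 2.30 at 2 h, 2.36 at 10 h and 2.49 in IgG. The median of the single-gene ratios was 2.66, 2.33, 2.35 and 2.57 over members with a peak. Over all protein-coding genes with a peak it was 2.78, 2.92, 2.78 and 3.72. Member peaks thus lay close to the 2-fold limit of the lists, a limit that ties the input of a listed peak to its precipitate. At 41 places of the members listed both fasted and at 2 h, precipitate tags per kb were higher at 2 h in 29 and input tags per kb in 27.

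**Figure D1:**
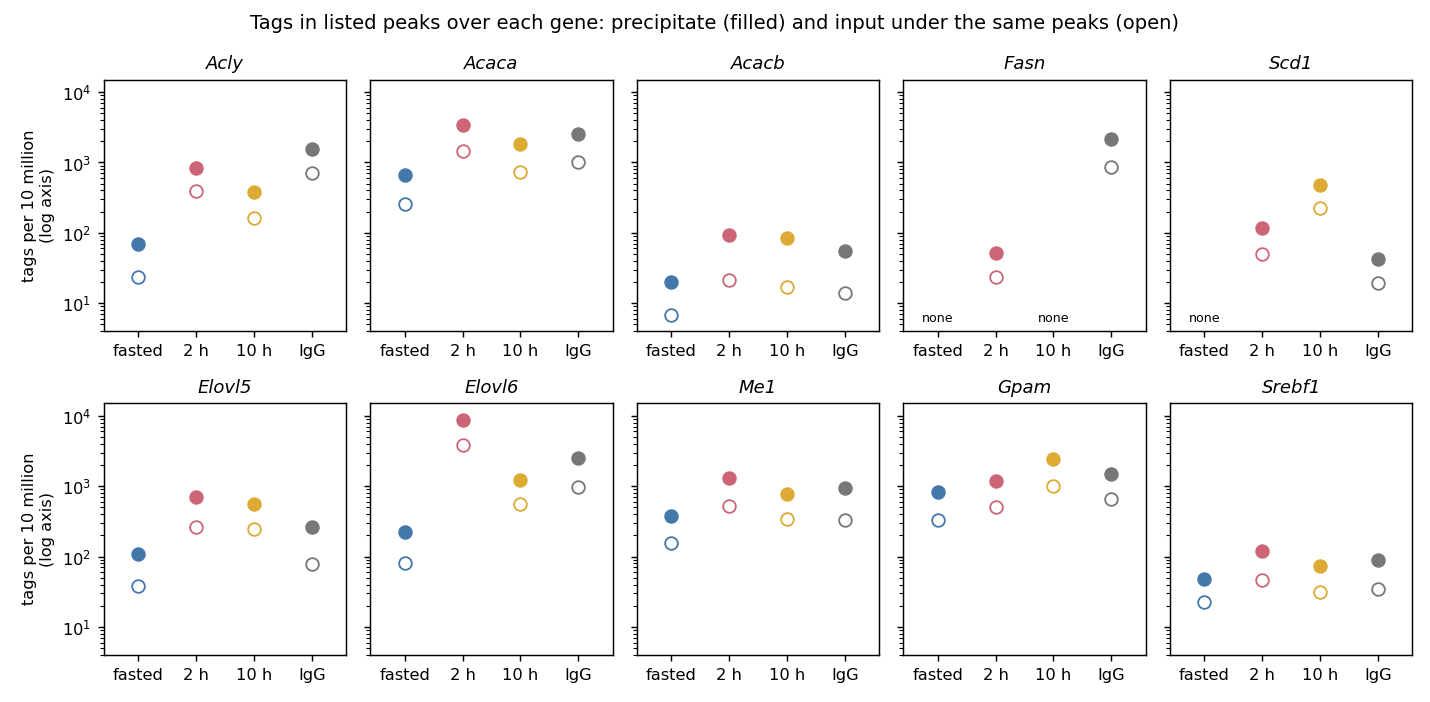
Tags per 10000000 library tags in the listed peaks of each gene (log axis), filled for the precipitate and open for the input under the same peaks, in the fasted, 2 h and 10 h NONO lists and the IgG list, with 1 library per point and "none" where the list has no peak. The open points move with the filled ones in every gene, and the 2 h point of Elovl6 at 8600.4 tags is the highest.

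Between fasted and 2 h, the 8 members with a peak in both lists all had more tags at 2 h, and 7 of them were at least 2-fold higher. Fasn and Scd1 had a peak at 2 h alone and have no fold. Counting genes listed at 2 h alone with those 2-fold higher gave 9 of 10 members, beside 54.2% of 8086 protein-coding genes with a peak in either list. None was at least 2-fold lower or listed in the fasted list alone, beside 13.3% of genes. The median fold of the 8 members was 4.85, and that of 5582 such genes was 1.82. Between 2 h and 10 h, 2 members (Scd1 and Gpam) were at least 2-fold higher, beside 21.1% of 8421 genes, and 3 (Acly, Elovl6 and Fasn) were at least 2-fold lower or had lost their listed peak, beside 32.4%. Against fasted, 8 of 9 members with a peak in either list were at least 2-fold higher at 10 h or, for Scd1, listed at 10 h alone, beside 43.7% of 7954 genes, and none was at least 2-fold lower, beside 16.0%.

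The size of the difference between fasted and 2 h, and its direction in some genes, depended on peaks of low fold over input. With only peaks at 3-fold over input or more, the members' summed tags were 502 fasted and 644 at 2 h, and 8 members had a peak in either list, and 4 of them (Acacb, Elovl5, Me1 and Srebf1) were at least 2-fold higher at 2 h, Srebf1 with no fasted peak, beside 57.9% of 6773 genes. Elovl6 and Gpam were then at least 2-fold lower at 2 h, beside 15.9%. Elovl6 kept 6 fasted peaks with 82.3 tags under that limit and none at 2 h.

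**Figure D2:**
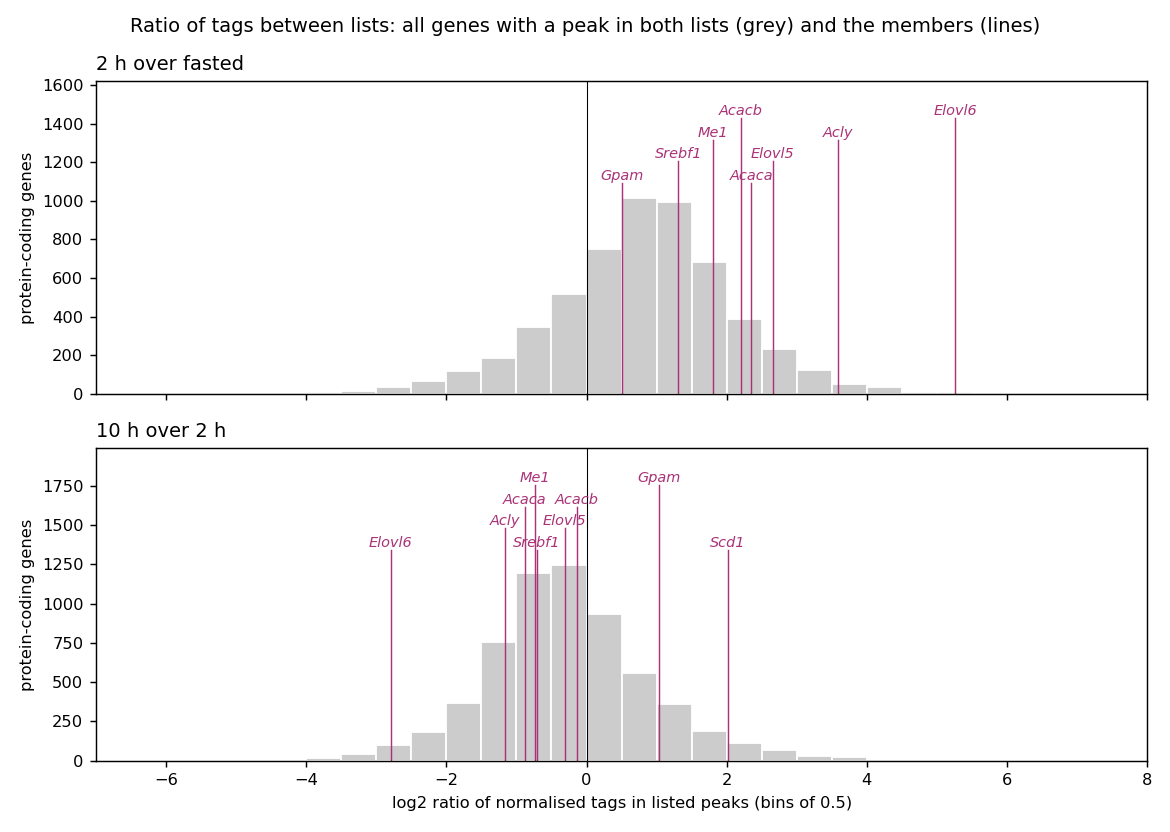
Number of protein-coding genes (grey bars, bins of 0.5) by the log2 ratio of tags in their listed peaks, 2 h over fasted above and 10 h over 2 h below, with a line for each member that had a peak in both lists. The middle of all genes lies at 0.86 above and -0.34 below, and the members run from 0.50 (Gpam) to 5.26 (Elovl6) above.

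Most member peaks lay where the IgG list had a peak as well. An IgG peak overlapped 63.0% of the members' fasted peaks, 69.5% at 2 h and 68.2% at 10 h, beside 34.6%, 39.9% and 40.1% of all peaks over protein-coding genes. IgG peaks also covered more of the member bodies, a median of 35.4%, beside 7.57% over protein-coding genes with an IgG peak. The part of this coverage in the overlap was not tested. All 10 members carried an IgG peak, beside 78.6% of the 9677 genes. A peak free of IgG overlap was listed for 8 members fasted, 9 at 2 h and 8 at 10 h. The shares among the 9677 genes were 59.9%, 70.9% and 68.0%, or 26.4%, 31.3% and 29.97% of all protein-coding genes. The same 8 members had such a peak at all 3 times, beside 46.9% of genes. Fasn had none at any time, and Scd1 had 1, at 2 h. Member gene bodies were longer than most, with a median of 63.6 kb against 30.3 kb over the 9677 genes, and a longer body holds more peaks.

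**Figure D3:**
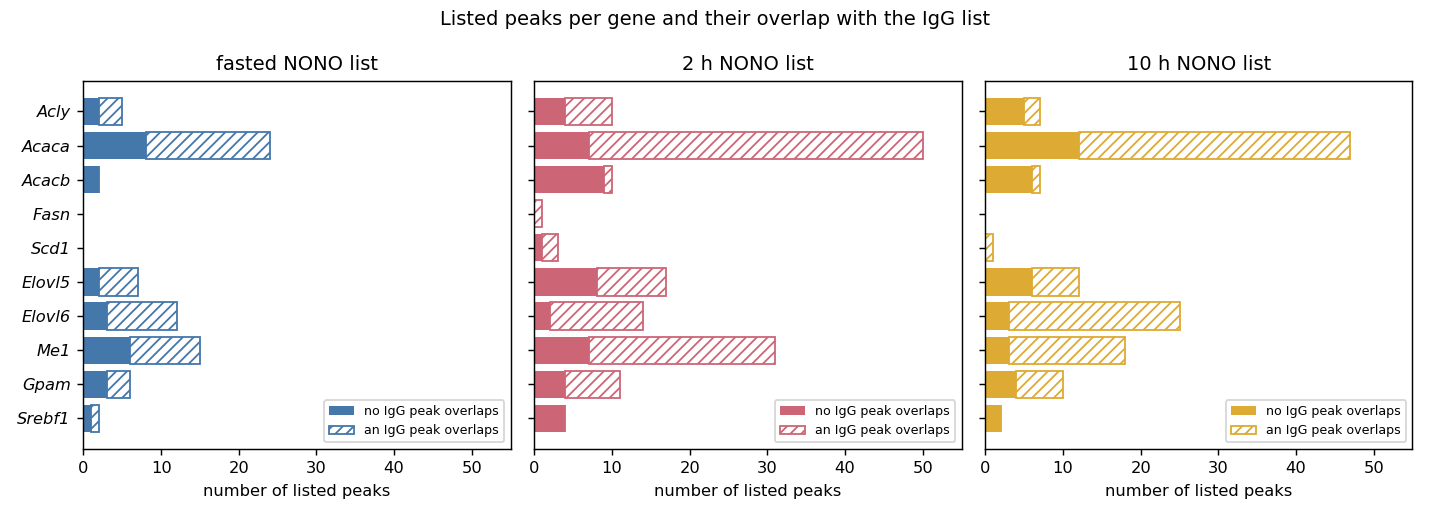
Number of listed peaks per gene in the fasted, 2 h and 10 h NONO lists, split into peaks that no IgG peak overlaps (filled) and peaks that an IgG peak overlaps (hatched). Acacb and Srebf1 are mostly filled, and Acaca, Elovl6 and Me1 are mostly hatched.

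Srebf1 encodes the membrane-bound factor SREBP-1, whose nuclear fragment switches on the enzymes below. It lies at chr11:60199089-60222581 on the minus strand and spans 23.5 kb, and it uses alternative first exons. The gene held 2 peaks with 48.5 tags fasted, 4 with 120.4 at 2 h, 2 with 73.8 at 10 h and 4 with 90.6 in IgG. Of the NONO peaks, 1 of 2, 4 of 4 and 2 of 2 were free of IgG overlap, so no IgG peak overlapped 7 of its 8 NONO peaks. One place recurred at all 3 times without an overlapping IgG peak, at the far upstream end of the gene. The IgG peak chr11:60220572-60221433 lay within 1000 bp of this place and of the IgG-free 2 h peak chr11:60219569-60220337. The NONO peaks of the recurring place were chr11:60221838-60222464 fasted with 36.1 tags, chr11:60221769-60224032 at 2 h with 72.5 and chr11:60221877-60222504 at 10 h with 61.8. Their density was 57.7, 32.0 and 98.6 tags per kb, over an input of 28.5, 13.4 and 43.6, and their fold over input was 2.02, 2.39 and 2.26. The 2 h peak was the widest and the least dense, and it ran past the start of the gene. The midpoint of that 2 h peak lay at -0.32 kb from the start. Counting only peaks with their midpoint inside the gene put 2 h slightly below fasted, at a log2 ratio of -0.018.

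RefSeq (GRCm38.p6) gives Srebf1 3 start sites, and the 250 bases before the outermost and the innermost are shown because peaks lay at or beside them. Capitals mark bases inside a NONO peak of any time, 5′ to 3′ on the minus strand. The 2 h peak covered all 250 bases before the outermost start (chr11:60222582-60222831), whose last 24 bases are all A. The innermost window (chr11:60210472-60210721) lay 9 bp from the nearest edge of an IgG-free 2 h peak of 10.4 tags, chr11:60210730-60211230, and held no peak itself.
Srebf1 outermost start: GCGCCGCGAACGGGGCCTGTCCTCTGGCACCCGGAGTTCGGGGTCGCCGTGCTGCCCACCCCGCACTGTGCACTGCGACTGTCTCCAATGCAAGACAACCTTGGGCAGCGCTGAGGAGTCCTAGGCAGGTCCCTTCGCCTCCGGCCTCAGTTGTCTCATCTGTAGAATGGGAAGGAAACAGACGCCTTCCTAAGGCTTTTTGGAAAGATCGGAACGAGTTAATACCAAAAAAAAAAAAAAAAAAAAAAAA
Srebf1 innermost start: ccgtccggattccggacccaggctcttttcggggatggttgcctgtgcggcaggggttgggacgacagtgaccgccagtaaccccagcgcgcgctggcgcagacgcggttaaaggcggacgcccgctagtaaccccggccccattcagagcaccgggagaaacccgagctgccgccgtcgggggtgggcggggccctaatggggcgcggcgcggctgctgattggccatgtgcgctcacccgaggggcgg
The fasted and 10 h peaks ended 118 and 78 bp short of the outermost window. The window before the middle start overlapped an IgG peak and no NONO peak. Of the 13 RefSeq windows of 9 members, 7 held CCAAT on either strand, beside 33.8% of 32851 windows, and 5 held GGGCGG, beside 32.7%. The innermost Srebf1 window held both, the outermost CCAAT alone. CACGTG was in 1 (Elovl5), beside 6.02%, and TCACNCCAC in none, beside 1.05%. These matches describe the letters and show no binding.

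Acly, ATP citrate lyase, makes cytosolic acetyl-CoA from citrate. The gene lies at chr11:100476353-100528000, minus strand. It held 5 peaks with 70.4 tags fasted, 10 with 846 at 2 h, 7 with 377 at 10 h and 13 with 1543 in IgG. The 2 h value was 12.0-fold the fasted one, and the input under the peaks was 16.7-fold higher. Intron 11 carried the strongest NONO peak at each time. These were chr11:100508111-100508611 with 22.3 tags fasted, chr11:100509234-100510658 with 255 at 2 h and chr11:100507132-100508019 with 152 at 10 h. IgG peaks overlapped that stretch as well. A place around intron 21, near the far end of the gene, was listed at all 3 times with no IgG peak, with 8.08, 29.4 and 53.1 tags (16.2, 25.3 and 48.4 tags per kb). Its 10 h peak, chr11:100482447-100483543, stood at 4.51-fold over input, the highest fold of the 7 Acly peaks of that list, and the density of the place was lowest in the fasted list.

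Me1, cytosolic malic enzyme, supplies NADPH for the synthesis. It lies at chr9:86581371-86695953, minus strand, and held 15, 31 and 18 NONO peaks with 371, 1292 and 779 tags, and 33 IgG peaks with 939.9. The 2 h value was 3.48-fold the fasted one, while covered length was 4.19-fold, so density was lower at 2 h (32.0 tags per kb) than fasted (38.6) and at 10 h (49.2). Peaks free of IgG overlap numbered 6, 7 and 3. The strongest fasted ones were tied at 20.4 tags, chr9:86617197-86617697 in intron 7 at 2.29-fold over input and chr9:86660258-86660758 in intron 3 at 3.53-fold. The strongest later ones were chr9:86620014-86621782 at 2 h with 50.7 in intron 6 and chr9:86584280-86586004 at 10 h with 67.9 in intron 13. One place, chr9:86616953-86619086, was listed at all 3 times with no IgG peak, with 29.4, 39.4 and 39.9 tags. A further IgG-free place lay in intron 1, at the second RefSeq start site of Me1, fasted (chr9:86687406-86687906, 17.1 tags) and at 2 h (chr9:86687470-86687970, 21.8 tags), with none at 10 h. The 250 bases before that start (chr9:86687278-86687527) are shown because 122 of them lie in these peaks, again in capitals.
Me1 second start: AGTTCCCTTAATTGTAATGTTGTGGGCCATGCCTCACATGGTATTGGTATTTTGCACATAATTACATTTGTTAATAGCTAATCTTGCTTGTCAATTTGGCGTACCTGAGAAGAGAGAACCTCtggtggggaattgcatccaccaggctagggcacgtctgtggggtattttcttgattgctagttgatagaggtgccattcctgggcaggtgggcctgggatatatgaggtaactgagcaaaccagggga

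Acaca and Acacb encode the acetyl-CoA carboxylases ACC1, which makes malonyl-CoA for synthesis, and ACC2, whose malonyl-CoA at the mitochondrion restrains fatty acid import. Their listed signals differed in kind. Acaca (chr11:84129672-84401651, 272 kb) held 24, 50 and 47 NONO peaks with 657, 3357 and 1823 tags, and 68 IgG peaks with 2572. Its tags ranked 89 among 7438 genes with a peak at 2 h and 115 among 7174 at 10 h. Its IgG-free peaks held 219, 229 and 272 tags, or 33.3%, 6.82% and 14.9% of its tags. The additional 2 h tags thus lay in peaks that an IgG peak overlapped by 1 bp or more. IgG peaks covered 4.4% to 100% of the length of those 2 h peaks, and 34.7% of the strongest, of 376 tags. IgG-free peaks numbered 8, 7 and 12, with the strongest fasted and 10 h ones at one place in intron 45, chr11:84347071-84349392 with 65.1 tags and 3.54-fold over input, and chr11:84347829-84349807 with 74.4 tags and 3.05-fold. At 2 h the strongest IgG-free peak was in intron 1, chr11:84187255-84188078, with 56.9 tags and 2.12-fold. That intron 1 place was listed at all 3 times without an IgG peak, with 30.9, 56.9 and 53.1 tags. The 2 protein-coding genes Acaca and Gm11437 overlap, and at most 2 of the Acaca peaks of a list touched another gene.

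Acacb (chr5:114146535-114250761, 104 kb) held 2 peaks with 19.96 tags fasted, 10 with 91.9 at 2 h, 7 with 83.7 at 10 h and 5 with 54.8 in IgG. All 19 NONO peaks were intronic, and 2, 9 and 6 of them were free of IgG overlap. The peaks were thin, at 14.5 to 19.96 tags per kb, but the input under them was thinner still, at 6.83, 3.37 and 2.99 tags per kb. The ratio of precipitate to input was therefore 2.92, 4.29 and 4.97, beside 3.98 in the IgG list. It was the highest of the members at 2 h, at 10 h and in IgG. Input tags per kb were 0.49-fold the fasted value at 2 h and 0.44-fold at 10 h, so the higher ratio went with a thinner input. All 10 of its 2 h peaks and all 7 at 10 h passed 3-fold over input, with 91.9 and 83.7 tags, and 1 of 2 fasted peaks did, with 8.56. In the IgG list 4 of 5 passed, with 33.7 tags. Intron 9 held peaks at 2 h (chr5:114192578-114193464, 9.48 tags) and at 10 h (chr5:114192655-114194625, 25.2 tags, 4.27-fold). No Acacb place was listed at all 3 times.

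Fasn, fatty acid synthase, assembles palmitate from malonyl-CoA. Its 18.7 kb body (chr11:120805846-120824547) was listed with no peak fasted and none at 10 h, and with 1 at 2 h, chr11:120822986-120823737, of 51.2 tags at 2.14-fold over input. An IgG peak covered all of it. The IgG list held 7 peaks with 2146 tags over 40.3% of the body, at 268 tags per kb, and its tags ranked 73 among 7604 genes in that list. The input under these IgG peaks was dense as well, at 109 tags per kb. Fasn thus had the most IgG tags per kb of the members, and no IgG-free NONO peak. Under 3-fold over input it kept 1 IgG peak, with 171 tags, and no NONO peak.

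Elovl6, which lengthens palmitate to stearate, gave the largest tag sum of the set, at 2 h. The gene lies at chr3:129532355-129638495 (106 kb). It held 12 peaks with 224 tags fasted (95% Poisson interval 204 to 245), 14 with 8600.4 at 2 h (8476 to 8726), 25 with 1239.5 at 10 h (1189 to 1292) and 22 with 2529 in IgG (2458 to 2602). These intervals do not overlap. The peaks covered 8.44%, 72.7%, 24.6% and 60.4% of the body. At 2 h it ranked 19 in tags and 10 in share of body covered among 7438 genes, and its ratio over fasted, 38.4-fold, ranked 7 among 5582. The input under the peaks was 47.1-fold higher, from 81.5 to 3836 tags. Fold over input of the 2 h peaks ran from 2.09 to 2.68, with a median of 2.26, and the fasted median was 2.85. Fasted peaks reached 15.4, in a peak of 8.08 tags over an input of only 0.52. One 2 h peak, chr3:129534463-129549458, was 14995 bp wide and held 3649 tags over an input of 1700.2. That peak also spanned the overlapping gene Gm43072 (chr3:129538141-129539811), whose tags cannot be separated from those of Elovl6.

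Along Elovl6 the 2 h signal was strongest toward the start. Joined across lists, the first region, chr3:129534463-129549458, carried 28.5 tags per kb fasted, 243 at 2 h, 72.0 at 10 h and 73.6 in IgG. The next region, chr3:129550301-129571989, carried 22.9, 146, 72.0 and 51.6. Beyond it, regions centred 55.2, 75.9 and 85.6 kb from the start carried 51.8, 76.8 and 51.9 tags per kb at 2 h, against 24.3, 19.96 and 23.1 fasted. All 5 regions were listed at all 3 times, had their highest density at 2 h and held IgG peaks. IgG-free Elovl6 peaks were few, at 3, 2 and 3, and the 2 at 2 h held 0.717% of its 2 h tags. All but 2 of the 2 h peaks lay in introns alone.

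**Figure D4:**
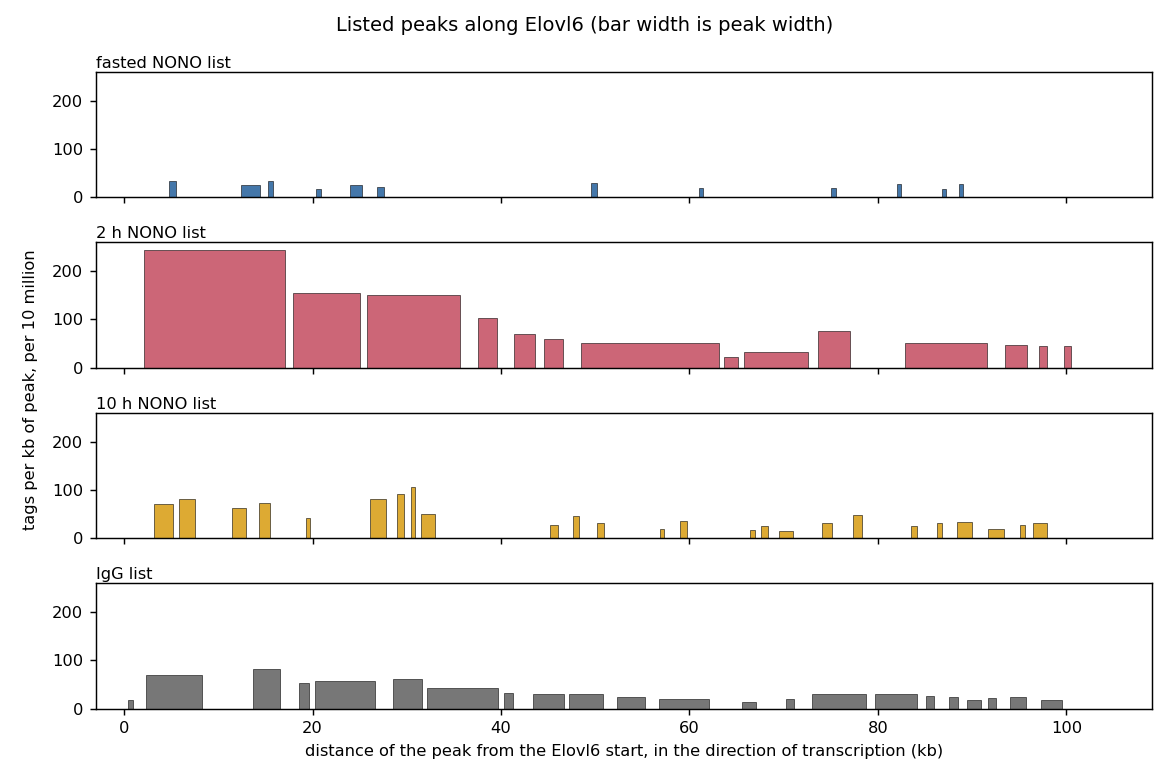
Peaks along Elovl6 in the fasted, 2 h, 10 h and IgG lists, by distance from the gene's start in kb (x) and tags per kb of peak per 10000000 library tags (y), with the bar width equal to the peak width. The 2 h list shows near-continuous peaks, the first at 243 tags per kb, where the fasted list has 12 separate low ones.

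Elovl5, which elongates polyunsaturated fatty acids, held 7, 17 and 12 NONO peaks with 109.85, 691 and 557.5 tags, and 15 IgG peaks with 259 (chr9:77917364-77984519). It had more tags at 2 h and at 10 h than in IgG, and its IgG-free peaks numbered 2, 8 and 6. Its strongest NONO peak lay in intron 1 just past the start at each time, with 36.6, 216 and 144 tags, and chr9:77917893-77921265 was the 2 h one. The joined place carried 32.3, 64.0 and 68.7 tags per kb, and 17.0 in IgG. Input there was 13.6, 27.3 and 30.5 tags per kb. Under 3-fold over input, Elovl5 kept 4 fasted, 7 of the 2 h and no 10 h peaks.

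Scd1, stearoyl-CoA desaturase, puts the first double bond into stearate and palmitate. The 13.4 kb gene (chr19:44394455-44407879) had no fasted peak, 3 at 2 h with 117 tags, 1 at 10 h with 475 and 1 in IgG with 42.1. With Gpam, it was a member whose 10 h value was the highest, 4.06-fold the 2 h value, with an input 4.48-fold higher. The 10 h peak, chr19:44403457-44406036, lay within intron 2 and was 2.11-fold over input, and the IgG peak covered 16.1% of it. At 2 h a 500 bp peak lay in the same intron with 27.0 tags. The 2 h list also had a peak across the start of the gene, chr19:44407733-44408603, with 18.5 tags at 2.86-fold, 62.1% of it under IgG, and the one IgG-free Scd1 peak, chr19:44398988-44399937, in intron 5 with 71.6 tags.

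Gpam, mitochondrial glycerol-3-phosphate acyltransferase, commits fatty acids to triglyceride. It lies at chr19:55067268-55127238, minus strand. It held 6 peaks with 838 tags fasted (interval 799.5 to 878), 11 with 1188 at 2 h (1142 to 1235), 10 with 2437 at 10 h (2366 to 2510) and 20 with 1476.5 in IgG. It held the most fasted tags of the members and ranked 208 among 6230 genes there. The 2 h value was 1.42-fold the fasted one and the 10 h value 2.05-fold the 2 h one, with input 1.55-fold and 1.97-fold. Covered length was 11.7 kb fasted and 12.6 kb at 10 h, so the higher 10 h value came as density, at 193 tags per kb against 71.5 fasted.

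The strongest Gpam peak sat at one place in all 3 NONO lists, within chr19:55099616-55102973. It held 339, 336 and 707 tags, or 136, 105 and 319 tags per kb, and 31.3 in IgG, over an input of 53.2, 38.5 and 112 tags per kb. A second place, chr19:55109686-55113820 in intron 1, carried 85.3, 55.5 and 140 tags per kb and 32.1 in IgG. In both, the NONO densities stood above the IgG density at all 3 times, the 10 h density was the highest and the 2 h one the lowest. Both lie under the antisense gene AC110206.1 (chr19:55099502-55117815, plus strand), and their tags cannot be assigned to either strand. Without peaks that touch another gene, Gpam at 2 h was at least 2-fold above fasted. Another place, in intron 11 and covered in full by an IgG peak, had no fasted peak and 175, 517 and 799 tags at 2 h, at 10 h and in IgG. IgG-free peaks numbered 3, 4 and 4, the strongest fasted one being chr19:55093287-55096108 with 117 tags at 3.27-fold. The IgG-free place listed at all 3 times, chr19:55072887-55073991 in intron 20, held 20, 30.3 and 120.9 tags.

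The second RefSeq start of Gpam lies at the edge of the strongest place, and the 250 bases before it (chr19:55099478-55099727) are shown for that reason. The 2 h peak reached 23 of them, in capitals, an IgG peak also entered the window, and the fasted peak stopped 62 bp short.
Gpam second start: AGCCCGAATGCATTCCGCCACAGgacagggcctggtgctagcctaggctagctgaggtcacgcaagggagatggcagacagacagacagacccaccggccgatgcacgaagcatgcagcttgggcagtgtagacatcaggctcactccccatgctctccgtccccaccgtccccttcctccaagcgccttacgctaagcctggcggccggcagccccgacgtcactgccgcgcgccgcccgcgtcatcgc
It held GGGCGG and no CCAAT on either strand.

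**Figure D5:**
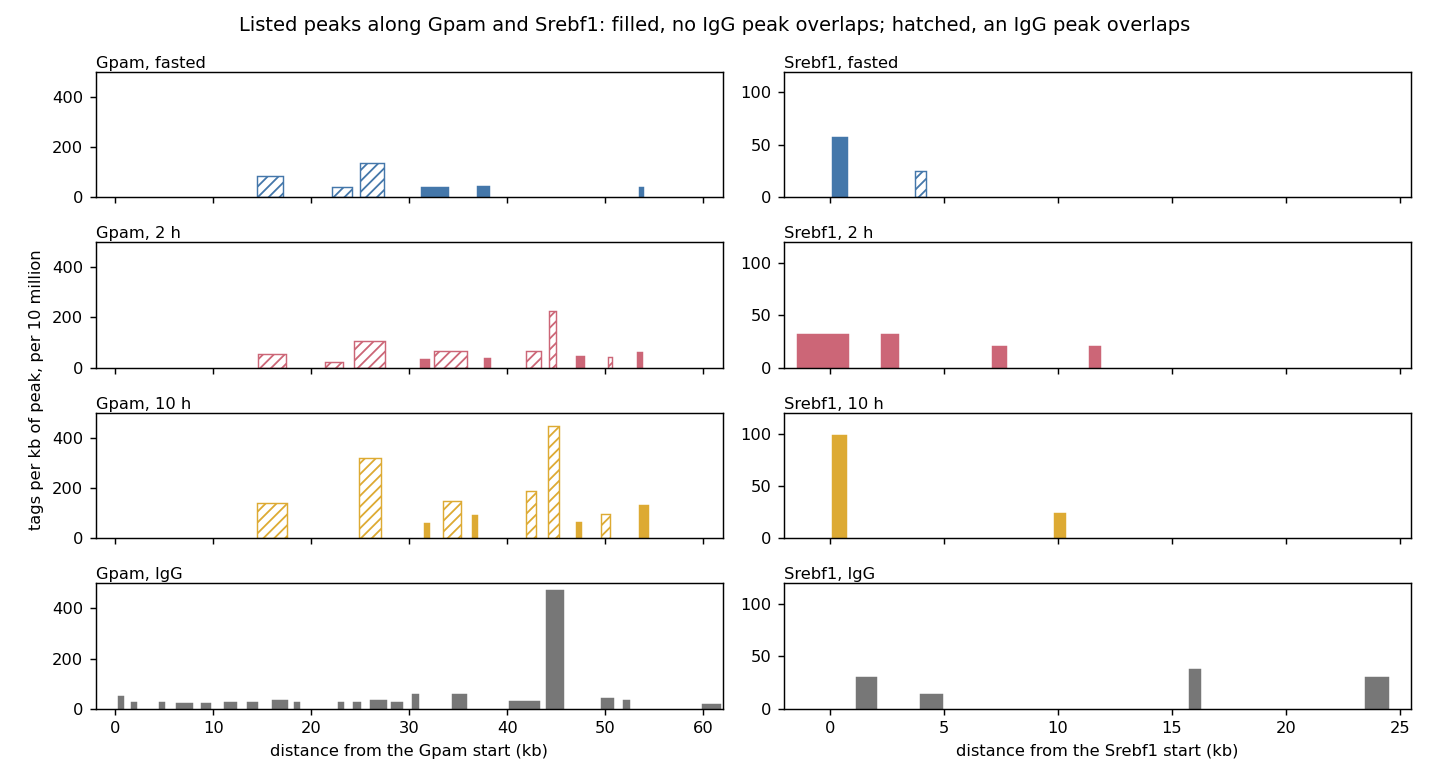
Peaks along Gpam (left) and Srebf1 (right) in each list, by distance from the gene's start in kb (x) and tags per kb of peak per 10000000 library tags (y), filled where no IgG peak overlaps and hatched where one does, with IgG peaks in grey. Gpam shows the same hatched peak about 26 kb in at all 3 times, up to 319 tags per kb at 10 h, and Srebf1 a filled one at its start.

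Joined across the 4 lists, the members held 228 separate places. Of these, 52 were listed in IgG alone, 91 at 1 NONO time, 56 at 2 and 29 at all 3. Places listed at a single NONO time were 10 fasted, 50 at 2 h and 31 at 10 h. Of the 29 places found at all 3 times, the density was highest at 10 h in 18, at 2 h in 10 and fasted in 1. At 32 places listed fasted and at 10 h, precipitate tags per kb were higher at 10 h in 31 and input tags per kb in 30. At 70 places listed at 2 h and at 10 h, each was higher at 10 h in 43. Acaca held 9 of the 29 places, Me1 6, Elovl6 5 and Gpam 4, while Acacb, Fasn and Scd1 held none. Only 5 of the 29 had no IgG peak, 1 each in Acly, Acaca, Me1, Gpam and Srebf1. These 5 were the recurring NONO places of the pathway that no IgG peak overlapped. In Me1, Gpam and Srebf1, an IgG peak lay within 1000 bp of the place.

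Member peaks were mostly intronic. Peaks touching an exon were 7 of 73 fasted (9.59%), 31 of 151 at 2 h (20.5%), 9 of 129 at 10 h (6.98%) and 44 of 188 in IgG (23.4%). Over all protein-coding genes the shares were 13.4%, 16.0%, 12.9% and 16.2%. Acaca held 15 of the 31 exon-touching 2 h peaks, and its peaks at that time covered 29.5% of the body.

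Of 34 further genes of lipid synthesis, among them citrate export, the SREBP and ChREBP machinery, NADPH supply and triglyceride assembly, 20, 25 and 22 carried a NONO peak at the 3 times and 28 an IgG peak. These are 58.8%, 73.5%, 64.7% and 82.4%, beside 28.4%, 33.9%, 32.7% and 34.6% of all protein-coding genes. IgG-free peaks were listed for 17, 22 and 17, or 50%, 64.7% and 50%, beside 26.4%, 31.3% and 29.97% of all protein-coding genes. Against the 9677 genes instead, the IgG-free shares of the 34 were lower at all 3 times, beside 59.9%, 70.9% and 68.0%. An IgG peak was carried by 78.6% of the 9677, beside 82.4% of the 34. The 9677 leave out peakless genes, whereas the 34 include Elovl3, Scd2, Pnpla3 and Fabp1, which had none. Of 26 with a peak in either list, 16 (61.5%) were at least 2-fold higher at 2 h than fasted or listed at 2 h alone and 1 (3.85%) the reverse, beside 54.2% and 13.3% of all genes counted the same way, so the first share is near that of all genes. The median was 12.1, 39.6 and 38.0 tags over the 34, lower than over the 10 members, at 90.1, 768 and 516. Hsd17b12, a ketoacyl reductase of the elongation cycle, held the most peaks, 18, 34 and 28, with 532.5, 1641 and 957.6 tags and 475 in IgG, and 9, 16 and 13 of them were IgG-free. Acss2, which makes acetyl-CoA from acetate, held 138, 277 and 488 tags. Elovl2, an elongase of polyunsaturated chains, held 243, 499.8 and 389, and Acsl5, an acyl-CoA synthetase, 149, 523 and 522. The lipins Lpin1 and Lpin2, phosphatidate phosphatases, held 160.2, 199.6 and 168.5, and 223.5, 536 and 264. Of these 6 genes, 5 had their highest NONO value at 2 h, and Acss2 had it at 10 h. Elovl3, Scd2, Pnpla3 and Fabp1 carried no peak in any list.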

How the data were processed

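Anti-NONO and IgG RIP-seq libraries and their inputs from mouse liver nuclei were analysed through the 4 deposited peak lists. Tools named in the submitters' processing notes are HOMER, STAR 2.4.0k and FastQC 0.11.2, with the build mm10. Per the labels' protocols, a strand-keeping total RNA kit that depletes ribosomal RNA was used. HOMER peaks were called by the authors, per the file headers, in 500 bp windows joined within 1000 bp, on both strands, at 2-fold or more over the matched input and 11 tags or more (8 in IgG). The deposited signal columns are tags in the peak per 10000000 library tags, as normalised by the authors, and the precipitate's and the input's tags. The deposited fold is a ratio, as the authors computed it, of precipitate to input tags after library scaling. The deposited score is the authors' HOMER peak score, used only to rank peaks within a list.

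From these, tags of every peak overlapping a gene body (GENCODE M21) by 1 bp were summed per gene and list. Whole peaks were counted, and covered length was clipped to the body. Input tags were put on the same scale by the deposited columns. A peak was called IgG-free when no IgG peak overlapped it. A difference was called at 2-fold. No p-value was computed, with 1 library per group. Intervals are exact Poisson at 95% on the precipitate's tags and cover counting error only. Exon and intron positions follow GENCODE, with introns numbered on the longest principal transcript. Sequences and start sites are RefSeq's (GRCm38.p6), with windows for 9 of 10 members. Values are given for all 10 members, their strongest peak and strongest IgG-free peak per list, for places listed at all 3 times or at a start site, and for the 6 of 34 pathway genes with most peaks. The places at start sites were picked after their values were seen. Densities and tag shares without Elovl6 and the IgG share without the Rn7sk peak were alternatives chosen after seeing the data. The members and lists were chosen with earlier results of these data known. Overlap and fold calls were tested on simulated data. Python 3.11.15, pandas 2.3.3, numpy 2.4.6 and scipy 1.17.1 were used. Alternatives covered IgG overlap, fold over input, list length, peak assignment, tag number and IgG scaling. Sequence under intronic peaks was not analysed here.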

Additional observations from a re-analysis of the deposited data

How the results depend on the processing

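With peaks at 3-fold over input or more, summed member tags were 502 fasted, 644 at 2 h, 466 at 10 h and 1676 in IgG, 4 members had an IgG-free peak at 10 h, 4 members were at least 2-fold higher and 2 lower at 2 h than fasted, and 3 were higher and 4 lower at 10 h than fasted. Under that setting the log2 ratio of 2 h over fasted was -0.69 for Acly, -0.47 for Acaca and -1.68 for Gpam, that of 10 h over 2 h was 2.64 for Acly and 1.11 for Acaca, and that of 10 h over fasted was -1.08 for Elovl6. With NONO lists of equal length by score, the sums were 15745 at 2 h and 7509 at 10 h. Without peaks over more than 1 gene they were 1660.2, 11906 and 6497, and 10929.6 in IgG. With 20 tags or more per peak they were 2227 fasted and 11472 in IgG, and 10 h over 2 h was 0.19 for Acacb. Scaling IgG without the Rn7sk peak gave 18642. Calling a peak IgG-free only with no IgG peak within 1000 bp moved 16 counts of IgG-free peaks per gene and time, and 14 stayed. Calling it IgG-free unless IgG covered 50% of it moved 10, and 20 stayed. With midpoints inside the gene, the log2 ratios of Srebf1 were -0.018 for 2 h over fasted and 0.62 for 10 h over 2 h. Leaving out 1 member at a time gave sums of 1500.4 to 2339 fasted, 7753 (without Elovl6) to 16303 at 2 h, 5408 to 7846 at 10 h and 9082 to 11612 in IgG. The cause of these shifts was not tested. Of 934 single-gene values under these settings, 692 kept their direction and size, 233 moved and 9 reversed, the 9 ratios given here. Ratios were scored only where a peak remained at both times, so losses of all peaks at 1 time are not among the 9. At 3-fold over input, these were Elovl6 at 2 h over fasted (82.3 fasted tags, none at 2 h) and Elovl5, Me1 and Gpam at 10 h over fasted, with none at 10 h.

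Depth limits single peaks of about 10 tags, as in Acacb, and 1 pooled library per group limits every comparison between times. No paired analysis was possible because no group holds more than 1 library.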
